A study of Manihot esculenta with 9 samples.

Results

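SAG12 and SAG29 are a pair of senescence-associated genes first described in Arabidopsis, and their cassava (Manihot esculenta) counterparts were followed here across all 9 leaf libraries of the series. The members are Manes.16G038400, described in the deposited table as senescence-associated gene 12, and Manes.13G006800, described as senescence-associated gene 29. They are 2 of the 33033 genes in the table, and both were among the 23434 genes with enough reads to be tested. They were singled out by name with their differences between the groups already known. Their levels and differences are therefore given as a description, without a test, and the tests below concern other genes. The gene lists used below were also drawn up with earlier results of these data known, so their counts are not independent support.

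SAG12 encodes a papain-like cysteine protease that degrades protein in the vacuolar compartments of senescing leaf cells, and its transcript is a widely used marker of developmental leaf senescence in Arabidopsis. SAG29, also named SWEET15, encodes a sugar transporter of the plasma membrane whose transcript accumulates in ageing leaves. Senescence is the last stage of leaf life, in which chlorophyll and protein are broken down and nitrogen and sugars are exported through the phloem. These roles come from Arabidopsis and were not tested in cassava.

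The series measured leaf RNA in 3 groups of 3 libraries each. HOE8 and HOE1 are transgenic cassava lines with overexpression of MeH1.2, a linker histone, the kind of protein that binds the DNA between nucleosomes, and WT is the untransformed wild type. Each overexpressing group is a single transgenic line, and the promoter of the transgene is not given in the sources used here. In all 3 groups the plants were 2-month-old seedlings grown from stem cuttings on MS medium in closed sterile bottles, without treatment. The labels do not say that the libraries of a group came from separate plants, so that a p-value here reflects the spread of the libraries alone, part of which may be technical. They also give no time of collection.

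A library held 13272047 to 16378389 counted reads in all. Levels are given as CPM, counts scaled to a common library depth, and 3 reads equal 0.176 to 0.233 CPM. The MeH1.2 match Manes.08G136300 averaged 3350 ± 261 CPM in HOE8, 4620 ± 113 CPM in HOE1 and 149 ± 7.95 CPM in WT (SD, n = 3 each), far higher in both overexpressing lines. In HOE8, library 1 differed most from its replicates: comparing their counts gave a median chi-square of 1.83 with library 2 and of 2.03 with library 3, and of 0.768 between libraries 2 and 3. Sampling noise alone gives 0.455, and pairs in HOE1 and WT gave 0.649 to 0.843. Results for HOE8 are therefore also given without this library. A large share of all genes differed between the groups: 71.9% of tested genes passed the threshold in HOE8 against WT, 64.4% in HOE1 against WT and 66.5% in HOE8 against HOE1. The threshold was an adjusted p of 0.05 in edgeR's quasi-likelihood test with Benjamini-Hochberg adjustment over all 23434 genes.

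SAG12 transcript was abundant in wild-type leaves, low in HOE1 and nearly undetected in HOE8. Manes.16G038400 lies on chromosome 16 at positions 4483150 to 4484537 of the authors' annotation, whose genome build is not given in the sources used here. In HOE8 its scaled level was 0.378, 0.233 and 0.22 CPM, from 5, 3 and 3 reads. In HOE1 the level was 35.6, 41.9 and 37.2 CPM, from 504, 639 and 575 reads. In WT it was 500, 503 and 515 CPM, from 7292, 7770 and 8778 reads. No library of any group overlapped those of another, and the order of the levels was HOE8 below HOE1 below WT. In every HOE8 library the level was near the 3-read floor, so differences among those libraries are not resolved at this depth.

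The mean SAG12 level was 0.277 ± 0.0879 CPM in HOE8, 38.2 ± 3.28 CPM in HOE1 and 506 ± 8.09 CPM in WT (SD, n = 3 each). Summed over libraries and scaled for depth, HOE8 held 0.0546% of the WT level, with a 95% exact counting interval of 0.0273% to 0.0978%. HOE1 held 7.56% of the WT level, with an interval of 7.19% to 7.94%. Such intervals cover counting error only. The fitted log2 fold change was -10.79 ± 0.44 (SE) in HOE8 against WT and -3.73 ± 0.07 in HOE1 against WT. Between the lines, HOE8 lay at 0.723% of HOE1 (interval 0.36% to 1.3%), a log2 fold change of -7.07 ± 0.44. Without HOE8 library 1 the HOE8 values were -11.07 against WT and -7.35 against HOE1. Ordered from the lowest log2 fold change, SAG12 stood at place 3 of 23434 tested genes in HOE8 against WT and at place 117 in HOE1 against WT. With few or no HOE8 reads, a fitted value can fall only as far as the WT reads allow. Manes.01G204500, with 0 reads in HOE8 and 141 in WT, stood at -8.46. Place 3 thus also reflects the abundance of SAG12 in WT.

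SAG29 was also far lower in both lines than in wild type, but in the other order. Manes.13G006800 lies on chromosome 13 at positions 750620 to 752529. In HOE8 its scaled level was 6.28, 8.3 and 5.65 CPM, from 83, 107 and 77 reads. In HOE1 it was 1.27, 1.25 and 1.55 CPM, from 18, 19 and 24 reads. In WT it was 97.4, 101.7 and 98.8 CPM, from 1420, 1572 and 1684 reads. The groups again did not overlap, with HOE1 lowest, HOE8 above it and WT far above both.

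The mean SAG29 level was 6.74 ± 1.38 CPM in HOE8, 1.36 ± 0.17 CPM in HOE1 and 99.3 ± 2.18 CPM in WT (SD, n = 3 each). HOE8 held 6.76% of the WT level (interval 5.96% to 7.65%) and HOE1 held 1.37% (interval 1.05% to 1.76%). The log2 fold change was -3.88 ± 0.11 (SE) in HOE8 against WT and -6.18 ± 0.2 in HOE1 against WT. HOE8 lay 4.94-fold above HOE1, a log2 fold change of 2.3 ± 0.21. Without HOE8 library 1 the HOE8 values were -3.83 against WT and 2.35 against HOE1. SAG29 stood at place 477 from the lowest in HOE8 against WT and at place 16 in HOE1 against WT. Of the lines, HOE8 thus had the lower SAG12 level and the higher SAG29 level. Both lines were set against the same WT libraries.

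**Figure D1:**
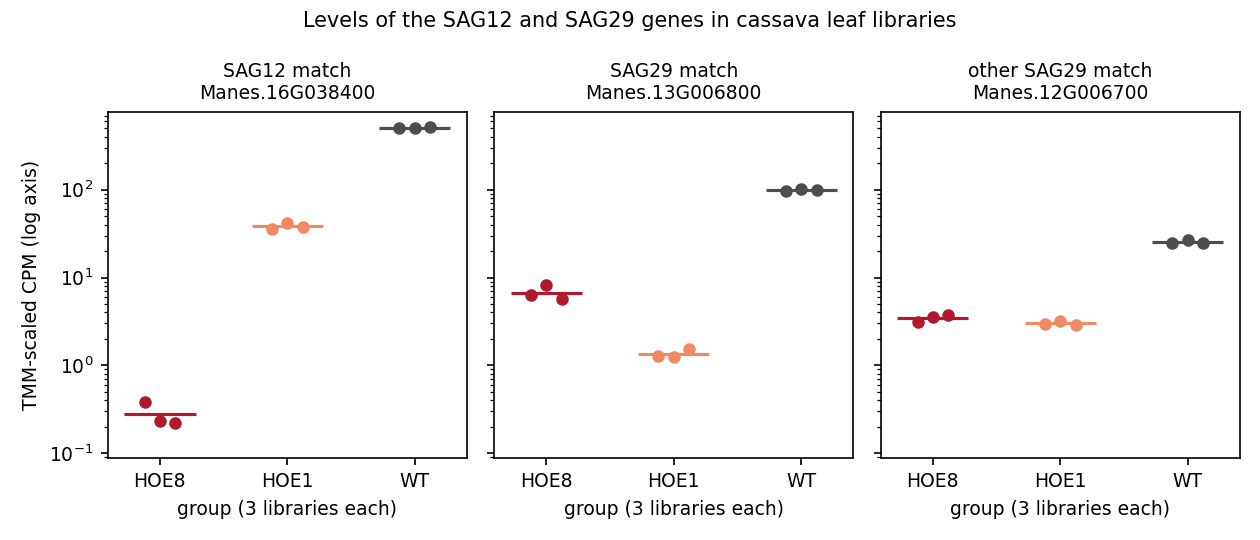
Scaled level (CPM, log axis) of SAG12, SAG29 and the other SAG29 match Manes.12G006700 in each library of HOE8, HOE1 and WT; points are libraries and lines are group means. SAG12 is lowest in HOE8, SAG29 is lowest in HOE1, and Manes.12G006700 lies at like levels in both lines, below WT.

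Libraries that do not overlap and lie below WT were common in these data, with 39.4% of tested genes in HOE8 and 37% in HOE1. Falls that passed the threshold and reached 2-fold or more were found in 16.6% of tested genes in HOE8 and 10.8% in HOE1. The members lay far beyond that fold, at the places given above. The full order seen for SAG12, with no overlap between any groups, was found in 11% of tested genes. The order seen for SAG29 was found in 4.52%. In bulk leaf RNA, fewer senescing cells and less transcript per cell cannot be told apart.

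Relative spread between libraries was highest in HOE8 and lowest in WT for both genes. The coefficient of variation of SAG12 was 31.7% in HOE8, 8.59% in HOE1 and 1.6% in WT. For SAG29 it was 20.5% in HOE8, 12.5% in HOE1 and 2.2% in WT. Counting noise is larger at few reads. SAG12 rests on 11 reads in HOE8 against 23840 in WT. For SAG29 the sums are 267 reads in HOE8 and 61 in HOE1 against 4676 in WT. The part of counting noise in this order was not separated, so it does not show that the lines varied more than WT. Over 14 alternative fits the SAG12 log2 fold change stayed between -11.07 and -10.65 in HOE8 against WT and between -3.8 and -3.68 in HOE1 against WT. That of SAG29 stayed between -4.05 and -3.76 in HOE8 and between -6.29 and -6.12 in HOE1.

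Levels of the genes can be set side by side only per length, as FPKM (reads per gene length and library depth), which the authors deposited. SAG12 had 0.217 ± 0.0688 FPKM in HOE8, 30.3 ± 2.59 FPKM in HOE1 and 425 ± 6.05 FPKM in WT. SAG29 had 3.62 ± 0.741 FPKM in HOE8, 0.737 ± 0.092 FPKM in HOE1 and 57.1 ± 1.07 FPKM in WT. On this scale SAG12 was the higher of the pair in HOE1 and WT and the lower of the pair in HOE8. Per library, SAG29 stood 11.4, 24.4 and 17.6 times above SAG12 in HOE8. SAG12 stood 40.9, 49.1 and 35 times above SAG29 in HOE1 and 7.49, 7.21 and 7.6 times above it in WT. In WT, SAG12 ranked 81, 77 and 72 by FPKM among the 33033 genes. It was a leading transcript of wild-type leaves by this measure, and its ranks were 5085, 4161 and 4818 in HOE1 and 24229, 25068 and 25085 in HOE8.

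Both genes were set against sets of related genes, here called families: cysteine proteases for SAG12 and SWEET genes for SAG29. The protease set is broad and also holds the vacuolar processing enzymes, so it is wider than the papain-like proteases. Among 47 cysteine protease genes, SAG12 made up 0.00937%, 0.00651% and 0.006% of the summed family FPKM in the HOE8 libraries. Its share was 0.718%, 0.851% and 0.749% in HOE1 and 7.17%, 7.15% and 7.26% in WT. In WT it ranked 6, 6 and 5 in the family, against 11 in every HOE1 library and 23 or 25 in HOE8. The rest of the family summed to 2795 to 3161 FPKM in HOE8, 3867 to 3904 FPKM in HOE1 and 5457 to 5508 FPKM in WT, so that the other proteases together also lay lowest in HOE8.

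Among 28 SWEET sugar transporter genes, SAG29 supplied 0.803%, 1.23% and 0.843% of the summed FPKM in HOE8. It supplied 0.215%, 0.223% and 0.266% in HOE1 and 16.8%, 17.4% and 16.8% in WT. In WT it was the first or second SWEET gene by FPKM. Here the rest of the family did not follow: it summed to 356.5 to 416 FPKM in HOE8, 303.1 to 320 FPKM in HOE1 and 276.1 to 281.2 FPKM in WT, with the lines above WT.

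**Figure D2:**
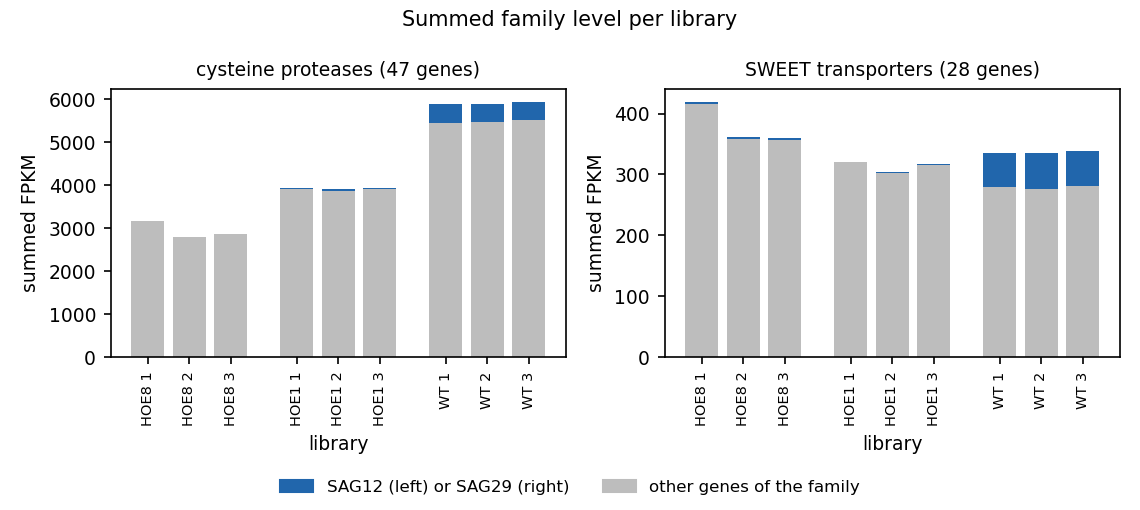
Summed FPKM of the cysteine protease genes (47 genes) and of the SWEET genes (28 genes) in each library of HOE8, HOE1 and WT; blue is SAG12 or SAG29, grey is the other genes of the family. SAG12 is 7.15% to 7.26% of its family in WT and SAG29 is 16.8% to 17.4% of its own, and in HOE8 no share passes 1.23%.

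Other cassava genes with the same Arabidopsis match gave a check of the family copies. A further 12 genes had SAG12 (AT5G45890) as their best match, and none of them had enough reads to be tested. Of these, 6 had no reads in any library, and the highest, Manes.15G123400, had 7 reads over the HOE8 libraries, 11 over HOE1 and 26 over WT. The 12 genes together held 14 reads in HOE8, 27 in HOE1 and 50 in WT. Manes.16G038400 thus held nearly all of the SAG12-matched reads in HOE1 and WT, whereas in HOE8 its 11 reads were no more than those of the other matches together. A cluster of 3 of these matches lies on the same chromosome, from 4343793 to 4381575, and held 1 read in all 9 libraries.

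SAG29 (AT5G13170) had 1 other match, Manes.12G006700, on chromosome 12 at positions 620978 to 623283. It was lower in both lines, at like levels in each. It measured 3.1, 3.57 and 3.74 CPM in HOE8, 2.97, 3.21 and 2.91 CPM in HOE1 and 25, 26.5 and 24.7 CPM in WT. The libraries of both lines lay below those of WT, and those of HOE8 and HOE1 overlapped. The log2 fold change was -2.87 ± 0.14 (SE) in HOE8 against WT (edgeR adjusted p = 7.3e-10) and -3.06 ± 0.14 in HOE1 against WT (adjusted p = 1.6e-09). Between HOE8 and HOE1 it was 0.2 ± 0.17 (adjusted p = 0.31). HOE8 held 13.7% of the WT level (interval 11.4% to 16.4%) and HOE1 held 12% (interval 9.94% to 14.3%). Reads shared with Manes.13G006800 by near-identical sequence cannot be separated in these counts, and the ordering of the lines at Manes.13G006800 was not seen at Manes.12G006700.

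The 5 annotated genes on each side of each member were read in the same way, to see whether the fall at the members extended along the chromosome. Neither member overlaps a neighbour. Around SAG12, 8 of 10 neighbours were tested. In HOE8 against WT, 2 were higher, 4 lower and 2 not called, where 33.7% of all tested genes were higher and 38.2% lower. In HOE1 against WT, 1 was higher, 5 lower and 2 not called, where 31.7% of all tested genes were higher and 32.7% lower.

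The nearest neighbour of SAG12, Manes.16G038300, lies 488 bp away and encodes ketol-acid reductoisomerase, an enzyme of branched-chain amino acid synthesis. It averaged 278 ± 9.76 CPM in HOE8, 238 ± 7.13 CPM in HOE1 and 371 ± 3.82 CPM in WT. Its fall was small, with log2 fold changes of -0.41 (adjusted p = 1.1e-05) in HOE8 and -0.64 (adjusted p = 5.4e-07) in HOE1. On the other side, 30076 bp away, the phosphatase-related gene Manes.16G038500 had 8.76 ± 1.53 CPM in HOE8, 5.78 ± 0.471 CPM in HOE1 and 8.99 ± 1.3 CPM in WT. It fell in HOE1 (log2 fold change -0.64, adjusted p = 0.0041), and its HOE8 value was -0.04 (adjusted p = 0.83). The next gene, Manes.16G038600, of unknown function and 33156 bp away, came closest to SAG12 in size of change. It averaged 0.102 ± 0.0885 CPM in HOE8, 0.361 ± 0.218 CPM in HOE1 and 4.61 ± 0.467 CPM in WT, with log2 fold changes of -5.4 ± 0.78 (adjusted p = 8.5e-07) in HOE8 and -3.66 ± 0.43 (adjusted p = 3.9e-06) in HOE1. The HOE8 mean of that gene rests on 4 reads. Manes.16G038200, a bHLH transcription factor gene 50319 bp away, fell in both lines, with log2 fold changes of -1.22 in HOE8 (adjusted p = 6.5e-06) and -2.32 in HOE1 (adjusted p = 1.3e-07).

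Around SAG29, 6 of 10 neighbours were tested. In HOE8 against WT, 2 were higher and the other 4 were not called. In HOE1 against WT, 5 were lower and the other 1 was not called. Manes.13G006900, an RNA helicase gene 1279 bp away, was the nearest. It averaged 0.686 ± 0.363 CPM in HOE8, 0.766 ± 0.304 CPM in HOE1 and 0.702 ± 0.0538 CPM in WT, and the log2 fold changes of -0.04 in HOE8 and 0.11 in HOE1 did not pass the test (adjusted p = 0.93 and 0.83). On the other side, 5525 bp away, Manes.13G006700, described as a helicase, had 7.94 ± 1.32 CPM in HOE8, 1.36 ± 0.0574 CPM in HOE1 and 4.57 ± 0.142 CPM in WT. It was higher in HOE8 (log2 fold change 0.79, adjusted p = 0.00036) and lower in HOE1 (-1.74, adjusted p = 6.6e-06). The pentatricopeptide repeat gene next to it, Manes.13G006600, moved in the same directions, with log2 fold changes of 0.59 in HOE8 (adjusted p = 0.0076) and -1.03 in HOE1 (adjusted p = 0.00068). Manes.13G007000, a protein kinase gene 7300 bp away, averaged 32.9 ± 1.34 CPM in HOE8, 28.8 ± 1.23 CPM in HOE1 and 32.6 ± 0.926 CPM in WT, with a log2 fold change of 0.01 in HOE8 (adjusted p = 0.84) and -0.18 in HOE1 (adjusted p = 0.024). The HOE1 call was lost in 5 of the 14 refits, including DESeq2 (adjusted p = 0.1 there, and 0.012 to 0.1 over all of them). Between the lines, 5 of the 6 tested neighbours were higher in HOE8 than in HOE1, where 32.7% of all tested genes were, and likewise 5 of the 8 around SAG12.

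**Figure D3:**
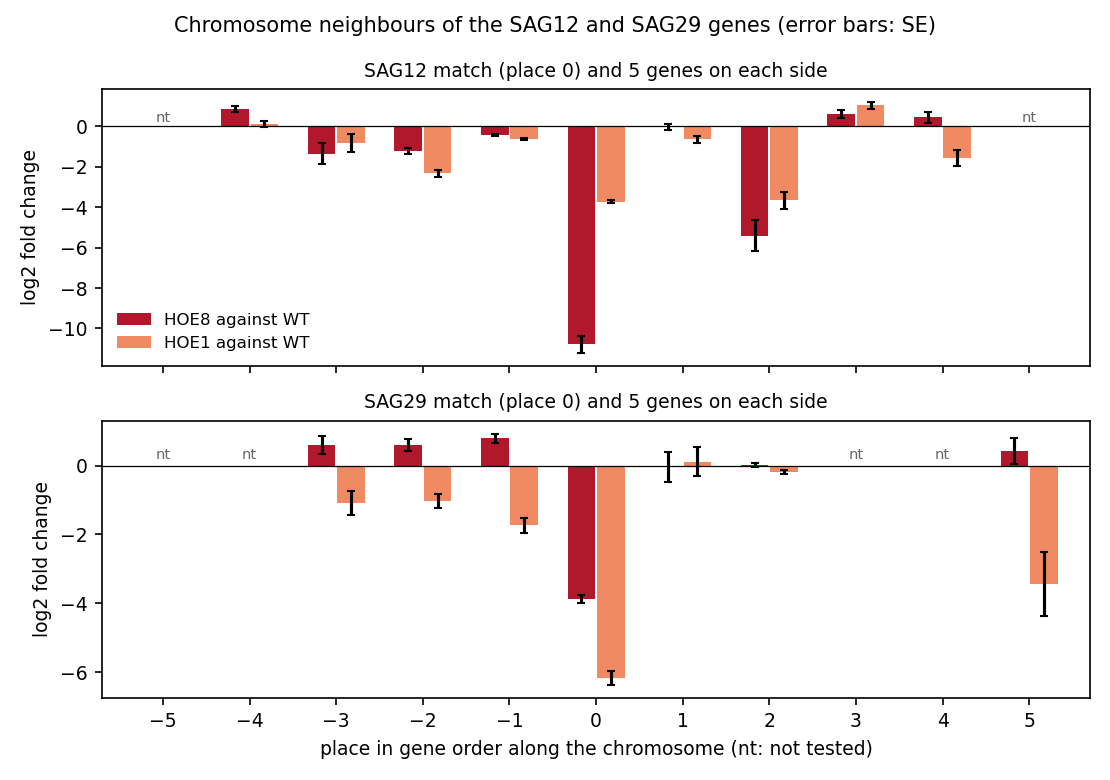
Log2 fold change of SAG12 and SAG29 and of the 5 annotated genes on each side, in HOE8 against WT and in HOE1 against WT; bars are fitted values, whiskers are SE, place 0 is the member and nt marks genes with too few reads to test. The members lie between -10.79 and -3.73 and the tested neighbours between -2.32 and 1.05, except Manes.16G038600 at -5.4 in HOE8 and -3.66 in HOE1 and Manes.13G007300 at -3.43 in HOE1, which rests on 3 HOE1 reads.

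Lists of genes from the pathway were drawn up from Arabidopsis loci, with the members and other SAG12 and SAG29 matches left out, and matched to cassava genes by the table's best match. Each list is described by the number of tested genes higher, lower or not called and by its median log2 fold change. Over all tested genes the median was -0.05 in HOE8 against WT, 0 in HOE1 against WT and -0.01 in HOE8 against HOE1. Of all tested genes, 33.7% were higher and 38.2% lower in HOE8 against WT. In HOE1 against WT, 31.7% were higher and 32.7% lower, and in HOE8 against HOE1, 32.7% were higher and 33.8% lower. Every list count below, with those of the cell type markers, is to be read beside these shares. Both lines were set against the same WT libraries.

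Transcription factors linked to leaf senescence were mostly lower in HOE8. Of 34 tested genes, 23 were lower, 7 higher and 4 not called in HOE8 against WT, with a median log2 fold change of -1.52. In HOE1 against WT, 17 were lower, 14 higher and 3 not called, with a median of -0.19. Set directly against HOE1, HOE8 was lower in 23 and higher in 2, with a median of -1.17, where 33.8% of all tested genes were lower and 32.7% higher. Without HOE8 library 1, 24 were lower and 7 higher in HOE8 against WT. The summed level was 799 to 829 CPM in HOE8, 2380 to 2390 CPM in HOE1 and 2450 to 2480 CPM in WT.

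Manes.03G114200, matching NAC072, a factor of abscisic acid and ageing responses, had the largest fall in that list. It averaged 11.1 ± 0.461 CPM in HOE8, 272 ± 3.98 CPM in HOE1 and 299 ± 4.74 CPM in WT, a log2 fold change of -4.75 ± 0.08 in HOE8 (adjusted p = 1.2e-12). Its HOE1 value of -0.14 (adjusted p = 0.025) lost its call when either of 2 WT libraries or any HOE1 library was left out. The other tested NAC072 match, Manes.15G084800, averaged 57.4 CPM in HOE8, 529 CPM in HOE1 and 217 CPM in WT. That gene fell in HOE8 (log2 fold change -1.92, adjusted p = 4.2e-11) and rose in HOE1 (1.29, adjusted p = 2.6e-09). Manes.06G121200, matching WRKY75, a promoter of senescence, averaged 6.86 ± 0.811 CPM in HOE8, 30.2 ± 2.9 CPM in HOE1 and 76.3 ± 4.7 CPM in WT. It fell in both lines, with log2 fold changes of -3.47 in HOE8 (adjusted p = 1.6e-10) and -1.34 in HOE1 (adjusted p = 2.8e-07). The same order of levels held for Manes.01G047200, matching WRKY53, a regulator of senescence onset, with 1.03 ± 0.485 CPM in HOE8, 6.74 ± 1.08 CPM in HOE1 and 14.7 ± 1.75 CPM in WT. Manes.17G029000, matching WRKY6, had equal means of 14.4 CPM in HOE8 and HOE1 against 42.5 CPM in WT, and the lines did not differ detectably (log2 fold change -0.01 ± 0.13, adjusted p = 0.96).

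Counted by Arabidopsis match, a grouping made after the values were seen, the 4 tested WRKY75 matches and the 4 WRKY6 matches were lower in both lines. Both NAC087 and both ATAF1 matches were lower in both lines as well. The 3 WRKY53 matches were lower in HOE8, whereas in HOE1 2 were higher and 1 lower. Of 5 matches of WRKY70, which in Arabidopsis delays senescence, 3 were higher and 1 lower in HOE8, and 5 were higher in HOE1. The single tested match of NAP, a promoter of senescence, was higher in both lines, against the direction of most of the list. JUB1, which delays senescence, had 1 match, Manes.02G089000, with 0.83 CPM in HOE8, 2.65 CPM in HOE1 and 0.842 CPM in WT. It was higher in HOE1 (log2 fold change 1.63, adjusted p = 0.00019). No gene with reads had ORE1, ORS1, NAC016, NAC019, NAC055, NAC046, WRKY45 or WRKY54 as its best match, so nothing is said of these.

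Hormone regulators of senescence showed no common direction. Of 14 tested genes, 5 were higher, 6 lower and 3 not called in HOE8 against WT, and 4 were higher, 4 lower and 6 not called in HOE1. Both matches of NCED3, the rate-limiting enzyme of abscisic acid synthesis, fell in both lines. Manes.03G083500 averaged 0.448 CPM in HOE8, 0.477 CPM in HOE1 and 4.3 CPM in WT. Manes.15G102000 averaged 1.21 CPM in HOE8, 6.22 CPM in HOE1 and 10.1 CPM in WT. Both matches of AAO3, the enzyme of the last step of that pathway, moved the other way. The larger change was that of Manes.04G057100, with 40.6 CPM in HOE8, 16.3 CPM in HOE1 and 10.4 CPM in WT (log2 fold change 1.96 in HOE8, adjusted p = 7.7e-08, and 0.64 in HOE1, adjusted p = 0.001).

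Other senescence markers mostly fell in HOE8, and in HOE1 more were lower than higher. Of 37 tested genes, 25 were lower, 5 higher and 7 not called in HOE8, with a median log2 fold change of -1.03. In HOE1, 20 were lower, 9 higher and 8 not called, with a median of -0.48. The list is led in number by 12 tested matches of SRG1, an oxygenase family, of which 9 were lower and 2 higher in HOE8 and 6 lower and 4 higher in HOE1. Without HOE8 library 1, 26 were lower and 6 higher in HOE8. The HOE1 count of lower genes was 17 by DESeq2 and 16 to 19 when single libraries were left out. The summed level was 1070 to 1180 CPM in HOE8, 2030 CPM in every HOE1 library and 2380 to 2480 CPM in WT.

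Manes.01G202400, matching the yellow-leaf-specific gene YLS5, came nearest to SAG12 in size of fall among the markers. It averaged 0.1 ± 0.116 CPM in HOE8, 1.58 ± 0.403 CPM in HOE1 and 115 ± 7.68 CPM in WT, with log2 fold changes of -10.05 ± 0.73 in HOE8 (adjusted p = 4.2e-11) and -6.18 ± 0.19 in HOE1 (adjusted p = 4.3e-10). Manes.14G134100, matching the blue-copper protein gene SAG14, averaged 0.302 CPM in HOE8, 5.74 CPM in HOE1 and 12.2 CPM in WT. Manes.10G006800, matching SAG20, averaged 2.71 CPM in HOE8, 39.3 CPM in HOE1 and 56.6 CPM in WT. These 3 genes had the SAG12 order of levels, with HOE8 lowest and HOE1 between, but the other tested matches of the same markers did not. Manes.01G202500 (YLS5) averaged 4.34 CPM in HOE8, 2.51 CPM in HOE1 and 8.46 CPM in WT. Manes.07G136900 (SAG20) averaged 16 CPM in HOE8, 137 CPM in HOE1 and 98.1 CPM in WT, and rose in HOE1 (log2 fold change 0.48, adjusted p = 1.3e-05). Manes.06G056400 (SAG14) had log2 fold changes of -0.05 in HOE8 (adjusted p = 0.48) and -0.84 in HOE1 (adjusted p = 5.8e-07), and Manes.06G056800 (SAG14) averaged 4.92 CPM in HOE8, 2.4 CPM in HOE1 and 2.89 CPM in WT. The beta glucosidase genes matching DIN2 were not alike: Manes.S042800 had 1 read over the HOE8 libraries, with WT 192-fold above (interval 34.1 to 7600), and fell by 3.28 in HOE1 on the log2 scale (adjusted p = 1.7e-06). Manes.S043000 also had 1 read in HOE8, with WT 90.4-fold above (interval 15.9 to 3600), but rose by 1.67 in HOE1 (adjusted p = 4e-05). Manes.07G027700, a further DIN2 match, was higher in both lines, with log2 fold changes of 2.82 in HOE8 (adjusted p = 1.2e-09) and 1.45 in HOE1 (adjusted p = 6.8e-07). SEN1, a dark- and senescence-induced gene, had 1 tested match, which was higher in both lines.

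Genes of chlorophyll breakdown did not all move alike. Of 15 tested genes, 9 were lower, 5 higher and 1 not called in each line, with medians of -0.77 in HOE8 and -0.37 in HOE1. Manes.01G069700, matching SGR1, which removes magnesium from chlorophyll, averaged 6.64 ± 0.7 CPM in HOE8, 77.7 ± 3.32 CPM in HOE1 and 173 ± 6.46 CPM in WT. Its log2 fold change was -4.7 in HOE8 (adjusted p = 3.8e-12) and -1.16 in HOE1 (adjusted p = 8.7e-08). The more abundant SGR1 match, Manes.02G030000, fell less, with 224 CPM in HOE8, 204 CPM in HOE1 and 401 CPM in WT. Its log2 fold changes were -0.84 in HOE8 and -0.98 in HOE1, and the lines were not called different (0.13, adjusted p = 0.056). Manes.16G115400, matching the chlorophyll b reductase NYC1, averaged 15.2 CPM in HOE8, 57.9 CPM in HOE1 and 74.7 CPM in WT. Manes.13G124600, matching RCCR, a later enzyme that acts on the opened ring, averaged 11.4 CPM in HOE8, 30.5 CPM in HOE1 and 77.9 CPM in WT, and the single matches of PPH, PAO and TIC55 on the same route were lower in both lines. The matches that rose in both lines were those of HCAR, which completes the conversion of chlorophyll b to chlorophyll a, of the SGR1 relative SGRL, and 2 of 3 tested matches of the chlorophyllase CLH1. The CLH2 match rose in HOE8 and the match of NOL, a chlorophyll b reductase, rose in HOE1. Manes.18G084500, matching SGRL, averaged 35.8 CPM in HOE8, 4.19 CPM in HOE1 and 1.4 CPM in WT (log2 fold change 4.66 in HOE8, adjusted p = 2.7e-10). A chlorophyllase match, Manes.01G204500, had no reads in HOE8 and was at least 39.7-fold lower there than in WT, taking 3 reads over the group as the floor.

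The other cysteine proteases mostly fell in both lines. Of 23 tested genes, 14 were lower and 6 higher in HOE8, with a median log2 fold change of -0.63, and 15 were lower and 4 higher in HOE1, with a median of -0.59. Manes.14G056700, matching CEP1, a protease of programmed cell death, averaged 25 ± 2.05 CPM in HOE8, 304 ± 12.4 CPM in HOE1 and 788 ± 18.3 CPM in WT. It had the same order of groups as SAG12, with log2 fold changes of -4.98 in HOE8 (adjusted p = 1.7e-12) and -1.37 in HOE1 (adjusted p = 1.3e-08). The 3 matches of RD21A and the 3 tested matches of RD21B, vacuolar proteases of ageing and stressed leaves, were lower in both lines. Manes.16G040500, a RD21A match, had the SAG29 order instead, with 6.51 CPM in HOE8, 2.41 CPM in HOE1 and 38.1 CPM in WT. The proteases that rose in HOE8 were grouped after their values were seen. They were the 3 tested matches of the xylem proteases XCP1 and XCP2 and the 3 of the vacuolar processing enzymes betaVPE and gammaVPE. Manes.01G075700, a betaVPE match, averaged 59.4 ± 1.61 CPM in HOE8, 2.7 ± 0.477 CPM in HOE1 and 4.76 ± 0.786 CPM in WT, higher in HOE8 (log2 fold change 3.63, adjusted p = 4.6e-10) and lower in HOE1 (-0.82, adjusted p = 0.00068).

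The other SWEET genes did not share the fall of SAG29. Of 13 tested genes, 5 were higher, 4 lower and 4 not called in HOE8, with a median of 0.07, and 7 were higher, 4 lower and 2 not called in HOE1, with a median of 0.34. By share, 38.5% were higher and 30.8% lower in HOE8, beside 33.7% and 38.2% of all tested genes. In HOE1, 53.8% were higher and 30.8% lower, beside 31.7% and 32.7%. The gene most like SAG29 in size of fall was Manes.14G047700, matching SWEET10. It averaged 3.71 ± 0.94 CPM in HOE8, 5.69 ± 0.614 CPM in HOE1 and 48.4 ± 3.29 CPM in WT, with log2 fold changes of -3.7 ± 0.15 (adjusted p = 2.1e-09) and -3.08 ± 0.14 (adjusted p = 1.5e-08). The other tested SWEET10 match, Manes.06G123400, rose in both lines, with 4.38 CPM in HOE8, 5.34 CPM in HOE1 and 1.85 CPM in WT. Manes.02G174100, matching SWEET1, averaged 208 ± 17.1 CPM in HOE8, 118 ± 2.97 CPM in HOE1 and 46.8 ± 1.44 CPM in WT. Manes.17G062900, matching the vacuolar transporter SWEET2, averaged 90.9 ± 10.2 CPM in HOE8, 91.8 ± 5.21 CPM in HOE1 and 14.8 ± 1.02 CPM in WT. Both rose in both lines, by 2.15 and 2.62 in HOE8 and by 1.34 and 2.63 in HOE1 on the log2 scale. The second tested match of each did not: Manes.18G086400 (SWEET1) was not called in HOE8 and was lower in HOE1 (log2 fold change -1.25, adjusted p = 0.0041). Manes.03G078800 (SWEET2) was lower in HOE8 (-0.22, adjusted p = 0.0049) and higher in HOE1 (0.34, adjusted p = 0.00037).

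Autophagy genes, which deliver cell contents to the vacuole, were more often lower than higher in HOE8 and more often higher than lower in HOE1. Of 43 tested genes, 25 were lower, 9 higher and 9 not called in HOE8, with a median log2 fold change of -0.28. In HOE1, 4 were lower, 21 higher and 18 not called, with a median of 0.19. HOE8 was lower than HOE1 in 30 of the 43 and higher in 3. The HOE1 count of lower genes was 9 without HOE8 library 1, which enters the shared estimate of spread, and 8 when only the HOE1 and WT libraries were fitted. These changes were small beside those of SAG12 and SAG29, with 1 exception. Manes.01G233100, matching ATG8i, a membrane anchor of the autophagosome, had 2 reads over the HOE8 libraries, 1 over HOE1 and 27.7 ± 0.377 CPM in WT. WT was 551-fold above HOE8 (interval 152 to 4550) and 1240-fold above HOE1 (interval 223 to 49100). Next in size, Manes.09G161900, matching ATG18h, averaged 14.7 CPM in HOE8, 28.3 CPM in HOE1 and 54 CPM in WT. The other tested ATG8i match, Manes.05G010700, kept its reads, with 15.1 CPM in HOE8, 27.9 CPM in HOE1 and 31.6 CPM in WT. Its log2 fold change was -1.07 in HOE8 (adjusted p = 5.5e-07) and -0.18 in HOE1 (adjusted p = 0.072).

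Genes of nitrogen and carbon remobilisation were divided too. Of 15 tested, 11 were lower and 4 higher in HOE8, with a median of -0.5, and 8 were lower, 6 higher and 1 not called in HOE1, with a median of -0.45. Manes.05G095700, matching NRT1.7, a transporter that loads nitrate from old leaves into the phloem, averaged 93.4 ± 5.77 CPM in HOE8, 127 ± 1.1 CPM in HOE1 and 540 ± 7.17 CPM in WT. It fell in both lines, with log2 fold changes of -2.53 in HOE8 (adjusted p = 1.4e-11) and -2.09 in HOE1 (adjusted p = 3e-10). The 3 matches of the cytosolic glutamine synthetase GLN1-1, which makes the transport amide glutamine, were lower in both lines. The asparagine synthetase matches differed. Manes.12G135000, matching ASN3, was lower in both lines, with log2 fold changes of -0.5 in HOE8 (adjusted p = 8.7e-06) and -0.51 in HOE1 (adjusted p = 1.1e-05). Manes.02G212800, matching ASN1, averaged 118 ± 3.19 CPM in HOE8, 3520 ± 50 CPM in HOE1 and 991 ± 33.2 CPM in WT, so that it fell in HOE8 (log2 fold change -3.07, adjusted p = 1.4e-12) and rose in HOE1 (1.83, adjusted p = 1.3e-10). Manes.12G076000, matching isocitrate lyase of the glyoxylate cycle, averaged 0.201 ± 0.0396 CPM in HOE8, 12.8 ± 0.627 CPM in HOE1 and 13.7 ± 0.53 CPM in WT. It fell by 6.03 in HOE8 on the log2 scale (adjusted p = 1.1e-10), and its HOE1 value was -0.1 (adjusted p = 0.37). A pair of glutamate dehydrogenase GDH1 matches went opposite ways in both lines, Manes.08G144100 lower and Manes.09G141500 higher. Of 3 tested matches of the phosphoenolpyruvate carboxykinase PCK1, 2 were higher and 1 lower in each line. The match of PPDK, pyruvate orthophosphate dikinase, was higher in both lines.

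Leaving out HOE8 library 1 moved few of these HOE8 counts. In HOE8 against WT it gave the same counts for hormone regulators, chlorophyll breakdown, cysteine proteases, autophagy and nitrogen remobilisation, and 5 higher and 5 lower SWEET genes.

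**Figure D4:**
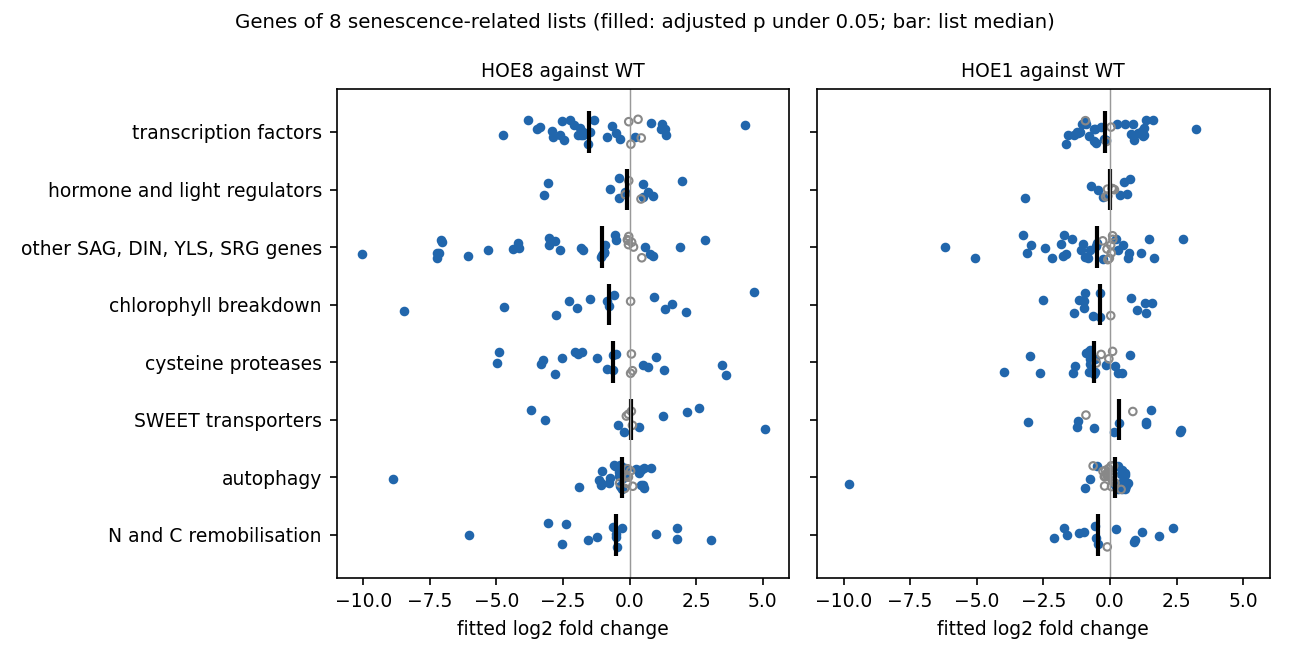
Log2 fold change of each tested gene in 8 lists of senescence-linked genes, HOE8 against WT on the left and HOE1 against WT on the right; filled points have an adjusted p under 0.05 and bars are list medians. The medians of the senescence factors are -1.52 in HOE8 and -0.19 in HOE1, those of the marker genes -1.03 and -0.48, and the autophagy medians of -0.28 and 0.19 lie on opposite sides of 0.

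Cell type markers moved between the groups along with these genes. The label gives leaf, and 15 leaf photosynthesis markers were tested, 13 higher and 1 lower in HOE8 and 11 higher and 1 lower in HOE1. Their summed level was 29300 to 32400 CPM in HOE8, 10900 to 11300 CPM in HOE1 and 4160 to 4580 CPM in WT, in the reverse order of SAG12. Rubisco activase, Manes.10G027600, averaged 14800 ± 468 CPM in HOE8, 2050 ± 39.3 CPM in HOE1 and 606 ± 17.6 CPM in WT. No gene with reads had RBCS1A or CAB3 as its best match. The 5 tested shoot meristem markers were all higher in HOE8 and 4 were higher in HOE1, and their list summed to 58.2 to 64.5 CPM in HOE8, 19.3 to 20 CPM in HOE1 and 9.77 to 11.8 CPM in WT. The tested ones were matches of STM, KNAT1 and UFO. CLV3 and KNAT2 had no match with reads. The WUS matches Manes.01G145500 and Manes.02G104000 had too few reads to test, each with 0 over the HOE8 libraries.

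Of 10 tested phloem markers, 6 were higher and 2 lower in HOE8 and 2 were higher and 3 lower in HOE1. The list summed to 140 to 143 CPM in HOE8, 238 to 250 CPM in HOE1 and 314 to 331 CPM in WT. Most of that sum in HOE1 and WT was Manes.18G099400, matching the companion cell sucrose transporter SUC2, with 52.8 ± 1.9 CPM in HOE8, 169 ± 3.4 CPM in HOE1 and 250 ± 8.21 CPM in WT. No gene with reads had AHA3 as its best match. Of 12 tested xylem markers, 7 were higher and 3 lower in HOE8 and 1 was higher and 8 lower in HOE1, and the list summed to 52 to 59.6 CPM in HOE8, 22.9 to 25.8 CPM in HOE1 and 37.5 to 40.3 CPM in WT. Without HOE8 library 1, 10 xylem markers were higher and 3 lower in HOE8. Only 2 root markers had enough reads to test, CASP1 and PYK10 had no match with reads, and the list summed to 12.9 to 16.5 CPM in HOE8, 11.2 to 12.4 CPM in HOE1 and 14 to 16.1 CPM in WT. The clock gene match Manes.01G239000 (LHY), which follows the time of day, averaged 1250 ± 160 CPM in HOE8, 8.62 ± 0.248 CPM in HOE1 and 5.33 ± 0.498 CPM in WT. The part of cell type composition and of collection time in the levels of SAG12, SAG29 and the lists above was not tested.

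The genes whose pattern over the 9 libraries was most like that of each member were found by the root mean square difference of log2 CPM, each gene centred on its own mean. They were chosen by their pattern, so that it is given without a test. Nearest to SAG12 was Manes.08G044900, a late embryogenesis abundant protein gene (LEA 4-5), with a difference of 0.89 and Pearson's r of 0.993. It averaged 0.0748 CPM in HOE8, 10.7 CPM in HOE1 and 64.9 CPM in WT, with 3 reads over the HOE8 libraries. Next came Manes.08G018000, matching embryonic cell protein 63, with 0.147 CPM in HOE8, 7.15 CPM in HOE1 and 63.2 CPM in WT, and Manes.05G139400, a cytochrome P450 gene of the CYP83B1 type, with 0.655 CPM in HOE8, 11 CPM in HOE1 and 522 CPM in WT. The others were Manes.03G210400 (1-cysteine peroxiredoxin), Manes.03G123400 (seed storage albumin), Manes.10G150200 (beta glucosidase), Manes.17G113900 (cupin) and Manes.07G020500 (B3 factor), at differences of 1.19 to 1.25.

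The nearest genes to SAG29 lay closer. Manes.11G164800, a Rossmann-fold reductase gene, had a difference of 0.27 and r of 0.995, with 8.88 CPM in HOE8, 2.19 CPM in HOE1 and 121 CPM in WT. Manes.07G069600, D-3-phosphoglycerate dehydrogenase of serine synthesis, had a difference of 0.36, with 21.2 CPM in HOE8, 7.55 CPM in HOE1 and 376 CPM in WT. The others were a pair of BURP domain genes, Manes.03G065700 and Manes.03G066300, the MATE transporter gene Manes.02G142000, the cytochrome P450 gene Manes.12G132900, lipid transfer protein 3, Manes.14G166500, and the bHLH gene Manes.01G208400, at differences of 0.6 to 0.76. No gene appeared in both sets of 8. With Pearson's r as the measure of likeness, none of the 8 genes nearest to SAG12 and 1 of the 8 nearest to SAG29 would have been chosen, so the set depends on the measure. With a prior count of 0.5 in place of 2, 4 of the 8 nearest to SAG12 were the same.

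**Figure D5:**
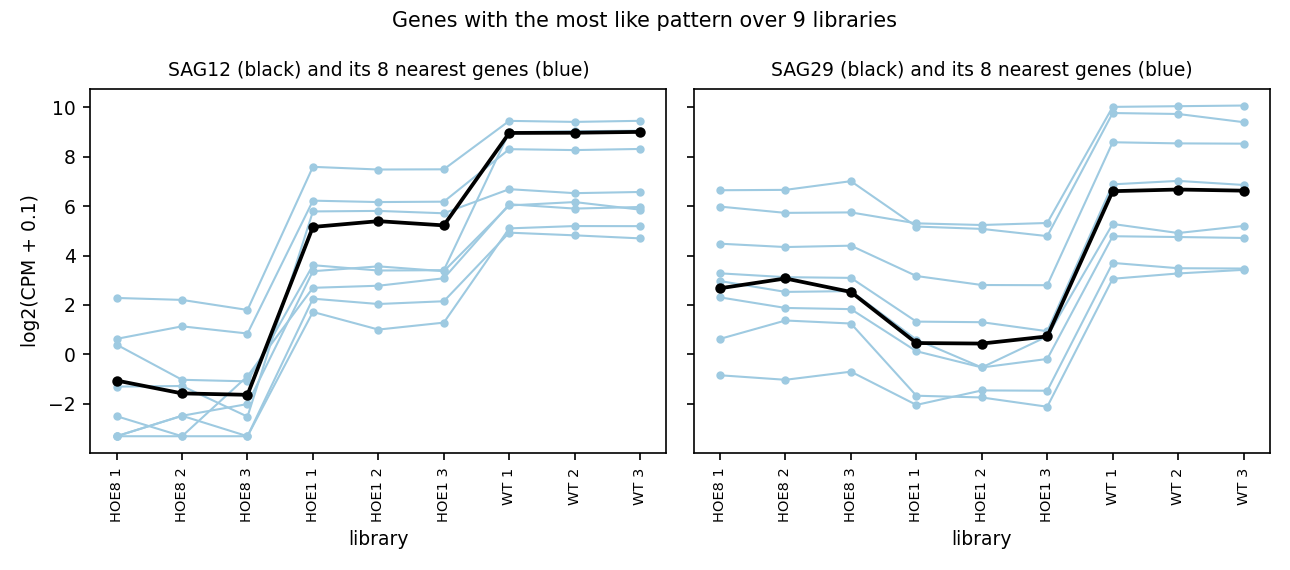
Level, as log2(CPM + 0.1), of SAG12 and SAG29 (black) and of the 8 genes nearest to each in pattern (blue) across the libraries of HOE8, HOE1 and WT. The SAG12 set is lowest in HOE8 and highest in WT, and the SAG29 set is lowest in HOE1 and highest in WT.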

How the data were processed

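Leaf RNA was sequenced in 9 libraries, 3 each of HOE8, HOE1 and WT, with groups taken from the genotype labels. Each gene had a read count and an FPKM value per library in the deposited table, per the file headers. The submitters' processing notes name HISAT2 2.0.4 and StringTie 1.3.0. The genome build, like the counter's settings and its use of strand, is not given in the sources used here. Count over gene length and library total gave back the deposited FPKM: 100% of 201737 values with at least 10 reads lay within 5% of their gene's median implied length.

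The test was run in R 4.3.3 with edgeR 4.0.16 and limma 3.58.1 on the deposited counts. Filtering by filterByExpr, with 10 as the lowest count, left out 9599 genes and kept 23434. TMM factors scaled the libraries, and a single quasi-likelihood model took all 9 together. P-values are two-sided and adjusted by Benjamini-Hochberg over the 23434 genes, with calls at an adjusted p under 0.05. Standard errors came from the posterior quasi-likelihood dispersion and the model weights of each group, and were never set below counting error. Expression is given as CPM scaled by TMM, as mean ± SD of 3 libraries. Ratios of summed reads carry 95% exact counting intervals, and a group with no reads was taken at 3 reads over the group. The common biological coefficient of variation was 12.1%. The test was tried on simulated HOE8 and WT counts of 22811 genes. It called 41.8% of 67 genes set to differ 1.5-fold, 89.6% of 67 set to differ 2-fold and 98.5% of 66 set to differ 4-fold, and made 7 false calls. The simulation changed only those genes, gave every gene the same dispersion and fitted HOE8 and WT alone. In the real data 71.9% of tested genes were called in HOE8 against WT. These rates are therefore not the error rates of the real test.

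The members and the gene lists were chosen with earlier results of these data known. The named genes were the members, the other genes with the same Arabidopsis match, the 5 neighbours on each side, and the 8 genes nearest in pattern to each member. From each list, at most 6 genes with the largest change in HOE8 and 3 in HOE1 could be named, among called genes whose libraries did not overlap and whose mean reached 1 CPM. The text names some of these. Alternatives were DESeq2 1.42.0, its size factors in edgeR, no filter, a replicate block, only the compared groups in the fit, and leaving out each library. The likeness was also taken by Pearson's r and with a prior count of 0.5 in place of 2. Gene sequences were not used here.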

Additional observations from a re-analysis of the deposited data

Results flagged for a closer look

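Of 112 named genes tested beside SAG12 and SAG29, 9 were called in opposite directions in the lines against WT and were also called different between the lines. The share of all tested genes that did so was not counted, so the number is not read as a result about the named genes. The WT libraries are shared by both comparisons, and the third test, of HOE8 against HOE1, does not use them as a contrast. All adjusted p-values here are edgeR's for HOE8 against HOE1, and the log2 fold changes are given for HOE8 against HOE1, then HOE8 against WT, then HOE1 against WT.

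A group of these was higher in HOE8 than in HOE1. Manes.01G075700, matching the vacuolar processing enzyme betaVPE, stood at 4.46, with 3.63 and -0.82 against WT (adjusted p = 2.9e-10). The laccase genes Manes.11G137900, matching LAC17, and Manes.01G164900, matching LAC4, both xylem markers, stood at 2.64, with 1.48 and -1.15 against WT (adjusted p = 2.5e-06), and at 2.02, with 0.94 and -1.08 against WT (adjusted p = 4.9e-08). The SAG29 neighbours Manes.13G006700 and Manes.13G006600 stood at 2.54, with 0.79 and -1.74 against WT (adjusted p = 1.6e-07), and at 1.62, with 0.59 and -1.03 against WT (adjusted p = 1.6e-05).

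The others were lower in HOE8 than in HOE1. Manes.S043000, matching DIN2, stood at -7.74, with -6.07 and 1.67 against WT (adjusted p = 7.4e-08), on 1 read over the HOE8 libraries, so that its HOE8 values depend on the prior count. Manes.02G212800, matching the asparagine synthetase ASN1, stood at -4.9, with -3.07 and 1.83 against WT (adjusted p = 4.7e-13). Manes.08G147800, matching NAC047, stood at -3.16, with -2.62 and 0.55 against WT (adjusted p = 1.1e-11). The xylem factor match Manes.18G100800 (VND7) stood at -1.52, with -0.89 and 0.64 against WT (adjusted p = 3.1e-06). In each of the 9 genes the libraries of HOE8 and HOE1 did not overlap. They were picked by their call between the lines, which 66.5% of all tested genes passed, so this adds no separate support.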

How the results depend on the processing

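Over 14 refits the log2 fold changes of SAG12 and SAG29 kept their sign in all 3 comparisons, and no result reversed. Among the counts and member values under alternatives, 1403 stayed within 1.5 times or the spread between replicates, and 31 moved. Among single named genes, 29 of 336 results changed side of the threshold under at least 1 refit, 10 of them without HOE8 replicate 1. In HOE1 against WT, the count of lower autophagy genes was 4 and ran from 4 to 9 when single libraries were left out (9 without HOE8 replicate 1), and was 8 with only the compared groups in the fit. Likewise the count of higher phloem markers was 2, ran from 1 to 3 and was 0 by DESeq2, and that of higher neighbours was 1, ran from 1 to 2 and was 2 with only the compared groups. In HOE8 against WT, leave-one-out counts were 1 to 2 for lower leaf markers and 0 to 1 for higher root markers, and lower root markers numbered 1 without the filter and 1 by DESeq2, against 0. In HOE8 against HOE1, leave-one-out counts were 1 to 2 for higher senescence factors, 2 to 5 for higher autophagy genes, 1 to 2 for lower phloem and for lower xylem markers, 0 to 1 for lower root markers and 0 to 1 for lower neighbours. Lower root markers there numbered 1, against 2 without the filter and 0 under the replicate block, and other SAG12 and SAG29 matches called lower numbered 1 without the filter, against 0. Of the 8 genes most like SAG12, 0 were shared under Pearson's r and 4 under a prior count of 0.5. For SAG29, 1 of 8 was shared under Pearson's r. The cause of these changes was not tested. Same-numbered libraries of different groups did not deviate together (r of -0.0403 to 0.0254), so no pairing by number was detected. These deviations hold much counting noise, so a weak pairing could have been missed. With the replicate as a block, 7761 genes were higher and 8863 lower in HOE8 against WT, against 7891 and 8950 without it. Depth limits SAG12 in HOE8, where 11 reads in 3 libraries set its level.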

Other observations

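Further genes carry senescence in their description but were on none of the lists, and were chosen after the annotation had been read. A group of 3 matches of SAUL1, a ubiquitin ligase that holds back premature senescence in Arabidopsis, differed among themselves. Manes.05G019700 averaged 24.3 ± 5.28 CPM in HOE8, 47 ± 1.12 CPM in HOE1 and 57.2 ± 3.26 CPM in WT, lower in HOE8 (log2 fold change -1.24, edgeR adjusted p = 4.6e-06), with a HOE1 value of -0.28 (adjusted p = 0.058). Manes.04G164900 averaged 9.85 ± 0.808 CPM in HOE8, 3.29 ± 0.252 CPM in HOE1 and 6.42 ± 1.18 CPM in WT, higher in HOE8 (0.61, adjusted p = 0.0024) and lower in HOE1 (-0.96, adjusted p = 0.00028). Manes.11G003600 averaged 2.16 CPM in HOE8, 2 CPM in HOE1 and 4.18 CPM in WT, and was lower in both lines (adjusted p = 0.00098 in HOE8 and 0.00055 in HOE1).

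The largest change in that group ran against SAG12. Manes.01G117900, described as a senescence-associated family protein, averaged 583 ± 22.5 CPM in HOE8, 86.8 ± 2.79 CPM in HOE1 and 42.2 ± 2.28 CPM in WT, higher in HOE8 (log2 fold change 3.79, adjusted p = 2.8e-12) and in HOE1 (1.04, adjusted p = 6e-08). Manes.04G089800, described as senescence-related gene 3, averaged 21.2 ± 1.13 CPM in HOE8, 87.4 ± 0.317 CPM in HOE1 and 52.7 ± 3.73 CPM in WT. It fell in HOE8 (-1.31, adjusted p = 1.4e-08) and rose in HOE1 (0.73, adjusted p = 2.2e-06). The 3 matches of AT2G17840, described as senescence- and dehydration-associated, were also unlike. Manes.01G147700 averaged 5.71 CPM in HOE8, 9.67 CPM in HOE1 and 11.6 CPM in WT, while Manes.04G074700 averaged 25.4 CPM in HOE8, 33.5 CPM in HOE1 and 21.6 CPM in WT. Manes.02G106200, also a match of AT2G17840, was lower in HOE8 (log2 fold change -0.46, adjusted p = 0.005). Manes.16G108400, of like description, was lower in HOE8 (-0.6, adjusted p = 0.049) and in HOE1 (-0.85, adjusted p = 0.011). Of the genes in this section, Manes.01G117900, Manes.04G164900 and Manes.04G074700 were higher in HOE8 and all the others were lower. A senescence term in the description thus did not go with 1 direction of change.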
